A study of Mus musculus with 20 samples.

Results

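The genes described here are 10 components and targets of the FGF4-ERK pathway in mouse embryonic stem cells (ESCs): the ligand gene Fgf4, the receptor gene Fgfr1, the inhibitor genes Spry1, Spry2, Spry4 and Spred1, the phosphatase genes Dusp4 and Dusp6, and the ETS transcription factor genes Etv4 and Etv5. They were taken by name, after Ensembl gene IDs had been matched to symbols, from 37991 gene IDs counted in each library. All 10 passed the filter on low counts in every fit. RNA was sequenced from ESCs with a conditional allele of Cnot3, which encodes a subunit of the cytoplasmic deadenylase complex CCR4-NOT, which trims the poly(A) tails of mRNAs. Cells treated with 0.1 µM 4-hydroxytamoxifen (4OHT), which triggers deletion of the allele, are called KO, and cells treated with DMSO are called WT. Whole-cell RNA and polysome RNA (mRNA carrying several ribosomes) were taken on day 3, and in a separate experiment actinomycin D, which blocks transcription, was added at 10 µg/ml on day 2 and RNA was taken after 0, 4 and 8 h. These made 10 groups of 2 biological replicates, 20 libraries in all.

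The 4 WT libraries of day 3, whole-cell and polysome, are labelled E14Tg2a, a standard mouse ESC line, as their source, and the 16 others conditional-knockout ESCs, although the design text describes every WT culture as DMSO-treated conditional cells. Line and deletion can therefore not be told apart on day 3 if the source label holds, whereas on day 2 both arms carry the same source. Gene counts per library ranged from 27664391 to 35170012 in day 3 whole-cell RNA, from 13832829 to 16688555 in polysomes and from 14513891 to 33262905 in the actinomycin D experiment. WT polysome replicate 2 stood apart from its replicate, with 12.9% of reads outside annotated genes against 4.75% to 7.05% in the other polysome libraries, so polysome results are given below with and without it where it matters. Cnot3 in KO was 16.6% of WT in day 3 whole-cell RNA, 18.3% in polysomes and 10.8% on day 2 before actinomycin D acted. Summed ESC markers (Pou5f1, Sox2, Nanog, Zfp42, Esrrb and Dppa5a) were at 4753 to 5301 CPM (reads relative to library size, scaled by the TMM method) in WT and 2584 to 2778 in KO whole-cell RNA on day 3, so the labelled cell type was present in both arms.

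FGF4 is secreted by ESCs and by the inner cell mass, binds FGF receptors together with heparan sulfate, and signals through Ras, Raf and MEK to the kinase ERK. Active ERK induces its own brakes: Sprouty and Spred proteins act upstream on Ras and Raf, and dual-specificity phosphatases (DUSPs) remove the activating phosphates from ERK. In ESCs this pathway is known for moving cells out of the naive state, and ETV factors are among its transcriptional targets.

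On day 3, 7 of the 10 genes fell in KO whole-cell RNA (Fgf4, Spry1, Spry2, Spry4, Spred1, Etv5 and Dusp6), 1 rose (Dusp4), and Fgfr1 and Etv4 did not pass the test at an adjusted p of 0.05. Across all genes tested in that comparison 28.2% were called, 12.2% lower and 16% higher. The median log2 change of the 10 genes was -0.75, beside 0.01 over all genes. Fgf4 and Spry4 ranked 53 and 54 from the lowest log2 change of 18303 genes. WT and KO did not overlap in CPM for any of the 10 genes in whole-cell RNA, which was also so for 80.3% of all genes. In RNA from whole cultures, fewer cells that express a gene and less of its RNA per cell cannot be told apart.

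Leaving out either KO whole-cell library brought the count of lower genes down to 4, since Spry1, Spry2 and Dusp6 no longer passed; the share of all genes called fell to 8.01% and 8.37% in these fits. Scaling to ribosomal protein mRNAs instead of the average mRNA raised the median change of all genes to 0.59 and left 3 lower genes (Fgf4, Spry4 and Etv5) and 2 higher ones (Dusp4 and Etv4). Trophectoderm markers moved in the same libraries: 8 of 9 rose, from a summed level of 182 to 190 CPM in WT to 642 to 660 CPM in KO, and none was at 0 in any group. Of the 6 ESC markers 5 fell. Of 4 post-implantation epiblast markers tested 3 fell, with a median log2 change of -1.29, from 430 to 467 CPM summed over 5 genes in WT to 170 to 175 CPM in KO, and Pou3f1 was at 0 in both arms; Fgf5, 1 of these markers, is also among the ligand genes counted below. Of 5 feeder fibroblast markers tested 3 rose, from 297 to 307 CPM summed over 7 genes in WT to 350 to 357 CPM in KO, and Col3a1 and Dcn were at 0 in both polysome arms. None of 6 primitive endoderm markers passed by edgeR, with 2 lower at an unadjusted p under 0.05 and 1 lower by DESeq2. The part of these cell type markers in the results below was not tested.

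**Figure D1:**
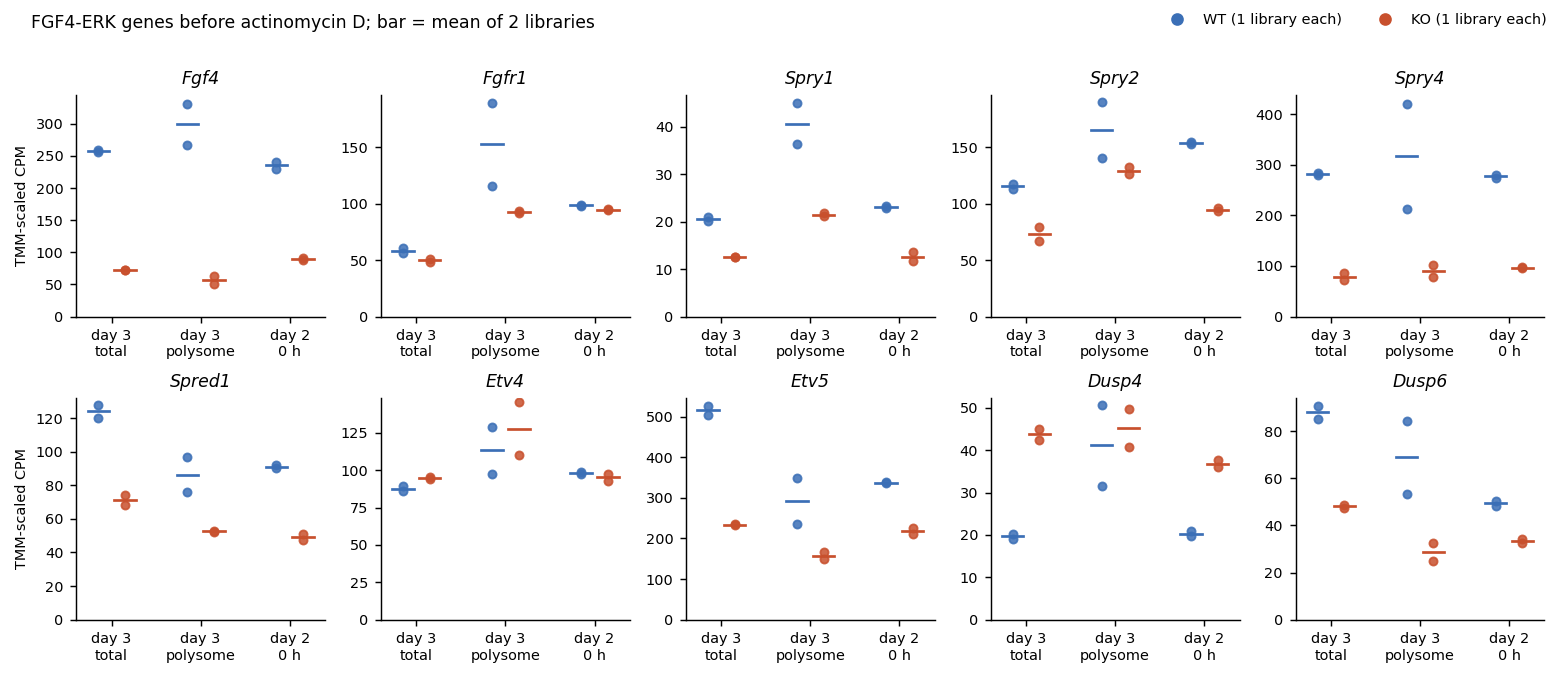
TMM-scaled CPM of the 10 genes (y axis, linear from 0) in day 3 whole-cell RNA, day 3 polysomes and day 2 RNA at 0 h of actinomycin D (x axis). Each point is 1 library and each bar the mean of 2; in all 3 settings both KO libraries lie below both WT libraries for Fgf4 and Spry4, and Dusp4 is higher in KO in whole-cell RNA.

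Fgf4 (ENSMUSG00000050917; chromosome 7, 144847367 to 144865243, plus strand, GRCm38) encodes the ligand. Its day 3 whole-cell level was 256.4 and 259.8 CPM in the WT libraries and 72.2 and 72.0 CPM in the KO libraries. In polysomes it was 267.0 and 331.1 CPM in WT and 63.0 and 50.3 CPM in KO. Before actinomycin D acted on day 2, it was 229.8 and 240.9 CPM in WT and 88.0 and 90.7 CPM in KO. The arms lay far apart in each of the 3 settings. The replicates of an arm lay close together in whole-cell RNA and on day 2, and farther apart in polysomes. Fgf4 was lower in KO, with a log2 change of -1.84 ± 0.17 (SE) in whole-cell RNA (adjusted p = 0.000156), -2.40 ± 0.17 in polysomes (adjusted p = 2.58e-05) and -1.40 ± 0.05 on day 2 (adjusted p = 6.52e-24). KO thus held 27.9%, 18.9% and 38.0% of the WT mean.

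Fgfr1 (ENSMUSG00000031565; chromosome 8, 25513654 to 25575718, plus strand) encodes an FGF receptor tyrosine kinase. Its day 3 whole-cell level was 56.0 and 60.4 CPM in WT and 48.4 and 51.3 CPM in KO, and on day 2 it was 98.1 and 98.9 CPM in WT and 94.3 and 95.1 CPM in KO. The 2 arms were close at both times, with log2 changes of -0.22 ± 0.20 (adjusted p = 0.421) and -0.06 ± 0.05 (adjusted p = 0.297). On day 3 Fgfr1 passed without either WT polysome library (adjusted p = 0.0230 and 0.0233) and in a fit of only the 4 whole-cell libraries (adjusted p = 0.00801), with log2 changes from -0.25 to -0.23. On day 2 it passed as lower with RLE scaling (-0.19) and as higher with ribosomal protein scaling (0.35). In polysomes the WT replicates were themselves far apart, at 115.9 and 189.6 CPM, above 91.7 and 94.0 CPM in KO. The polysome change of -0.72 ± 0.20 (adjusted p = 0.0167) was lost without any of 6 of the 8 libraries, and it was -1.03 without WT polysome replicate 1 and -0.31 without replicate 2 (adjusted p = 3.06e-06 and 0.0235). Fgfr1 overlaps Gm16159 on the opposite strand, and the sources used here do not say whether reads were counted by strand, so reads of these 2 genes may not be separable.

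Spry4 (ENSMUSG00000024427; chromosome 18, 38586247 to 38601415, minus strand) encodes a Sprouty protein, an ERK-induced inhibitor of receptor tyrosine kinase signalling. It was at 284.1 and 279.5 CPM in WT and 71.9 and 86.3 CPM in KO in day 3 whole-cell RNA. Its day 2 level was 280.9 and 273.2 CPM in WT and 95.3 and 97.6 CPM in KO. Every KO library lay below every WT library by a wide margin, and Spry4 fell by 1.83 ± 0.28 on the log2 scale on day 3 (adjusted p = 0.00135) and by 1.52 ± 0.05 on day 2 (adjusted p = 3.97e-25). In polysomes WT replicate 1 was at 421.0 CPM and replicate 2 at 212.0 CPM, and KO was at 102.5 and 77.5 CPM. The polysome change was -1.81 ± 0.28 (adjusted p = 0.000867), -1.24 without WT polysome replicate 1 and -2.22 without replicate 2.

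The other 3 inhibitor genes were also lower in KO. Spry2 (ENSMUSG00000022114; chromosome 14, 105891947 to 105896819, minus strand), a second Sprouty gene, went from 113.3 and 117.6 CPM in WT to 66.8 and 79.1 CPM in KO whole-cell RNA on day 3. Spry1 (ENSMUSG00000037211; chromosome 3, 37639947 to 37644598, plus strand), the Sprouty gene with the lowest CPM of the 3, went from 20.1 and 20.9 CPM to 12.6 and 12.4 CPM. Spred1 (ENSMUSG00000027351; chromosome 2, 117121374 to 117182279, plus strand), whose protein brings the Ras inhibitor neurofibromin to the membrane, went from 119.9 and 127.9 CPM to 68.2 and 74.3 CPM. All 3 were lower in both KO libraries than in either WT library, at 63.2%, 61.0% and 57.5% of the WT mean. Their log2 changes were -0.66 ± 0.17 for Spry2 (adjusted p = 0.0161), -0.71 ± 0.15 for Spry1 (adjusted p = 0.00686) and -0.80 ± 0.15 for Spred1 (adjusted p = 0.00370). Without any 1 of the 4 whole-cell libraries Spry2 no longer passed (adjusted p from 0.0508 to 0.126), nor with library totals (-0.40), and Spry1 did not pass without either KO library.

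On day 2 the same 3 genes were again lower in KO. Spry2 was at 154.8 and 152.8 CPM in WT and 95.8 and 93.6 CPM in KO, Spry1 at 22.9 and 23.4 CPM against 13.5 and 11.6 CPM, and Spred1 at 91.9 and 90.0 CPM against 47.2 and 50.7 CPM. They fell by 0.70 ± 0.05, 0.88 ± 0.09 and 0.89 ± 0.06 on the log2 scale, with adjusted p of 5.82e-15, 6.87e-11 and 3.65e-17, and no left-out library changed these 3 calls. In polysomes Spry1 (-0.92 ± 0.15, adjusted p = 0.00118) and Spred1 (-0.71 ± 0.15, adjusted p = 0.00463) fell as well, although Spred1 did not pass in a fit of only the 4 polysome libraries (adjusted p = 0.0556). Spry2 in polysomes was at 190.3 and 140.5 CPM in WT and 132.7 and 126.1 CPM in KO, a change of -0.35 ± 0.17 that did not pass (adjusted p = 0.123); it was -0.12 without WT polysome replicate 1 (adjusted p = 0.388), and -0.55 without replicate 2, where it passed (adjusted p = 0.00166).

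The 2 phosphatase genes moved in opposite directions. Dusp6 (ENSMUSG00000019960; chromosome 10, 99263231 to 99267489, plus strand), which encodes a cytoplasmic phosphatase selective for ERK, was at 85.3 and 90.8 CPM in WT and 48.8 and 47.5 CPM in KO whole-cell RNA on day 3. Both KO libraries were below both WT libraries there, as on day 2 and in polysomes. It fell by 0.87 ± 0.21 on the log2 scale (adjusted p = 0.0116), a call lost without any 1 of the 4 whole-cell libraries (adjusted p from 0.0559 to 0.0719). On day 2 it fell by 0.56 ± 0.08 (adjusted p = 2.81e-07), from 48.3 and 50.5 CPM to 32.6 and 34.3 CPM; with ribosomal protein scaling the change was -0.15 and did not pass. In polysomes it fell by 1.26 ± 0.21 (adjusted p = 0.00143), from 84.5 and 53.2 CPM to 32.6 and 24.8 CPM.

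Dusp4 (ENSMUSG00000031530; chromosome 8, 34807297 to 34819894, plus strand) encodes a nuclear ERK phosphatase. In day 3 whole-cell RNA it was at 19.1 and 20.1 CPM in WT and 42.5 and 45.0 CPM in KO, and on day 2 at 19.7 and 20.8 CPM in WT and 36.0 and 37.7 CPM in KO. Both KO libraries lay above both WT libraries each time. Dusp4 rose by 1.16 ± 0.20 on the log2 scale on day 3 (adjusted p = 0.00290) and by 0.86 ± 0.08 on day 2 (adjusted p = 5.42e-12). Without WT whole-cell replicate 1 the day 3 change was 1.06 and did not pass (adjusted p = 0.0544). In polysomes the arms overlapped, at 50.7 and 31.5 CPM in WT and 49.6 and 40.8 CPM in KO, and the change was 0.14 ± 0.20 (adjusted p = 0.627). It was 0.51 and passed without WT polysome replicate 1 (adjusted p = 0.00618), and -0.16 without replicate 2 (adjusted p = 0.347), so the sign there depended on which WT polysome library was used.

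Of the 2 ETS factor genes, 1 was called lower. Etv5 (ENSMUSG00000013089; chromosome 16, 22381309 to 22439719, minus strand), an ERK target in ESCs, was at 527.0 and 504.4 CPM in WT and 235.2 and 233.1 CPM in KO whole-cell RNA on day 3, and fell by 1.14 ± 0.19 on the log2 scale (adjusted p = 0.00231). On day 2 it was at 335.6 and 338.6 CPM in WT and 211.0 and 224.6 CPM in KO, and fell by 0.63 ± 0.04 (adjusted p = 1.08e-16). In polysomes it fell by 0.89 ± 0.19 (adjusted p = 0.00530), from 348.9 and 234.4 CPM to 166.2 and 149.4 CPM; the change was -0.58 without WT polysome replicate 1, and did not pass without KO polysome replicate 2 (adjusted p = 0.0639). Every KO library was below every WT library of the same setting. Etv4 (ENSMUSG00000017724; chromosome 11, 101769742 to 101785371, minus strand), its close relative, was at 86.1 and 89.2 CPM in WT and 95.7 and 94.0 CPM in KO on day 3, and at 98.8 and 97.7 CPM against 93.1 and 97.3 CPM on day 2. Its log2 changes were 0.11 ± 0.18 (adjusted p = 0.652) and -0.04 ± 0.05 (adjusted p = 0.400), and on day 2 the value was 0.11 with library totals and 0.37 with ribosomal protein scaling. In polysomes the arms overlapped, at 129.0 and 97.6 CPM in WT and 145.4 and 110.4 CPM in KO, with a change of 0.17 ± 0.18 (adjusted p = 0.463) that was 0.38 and passed without WT polysome replicate 1 (adjusted p = 0.0366).

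**Figure D2:**
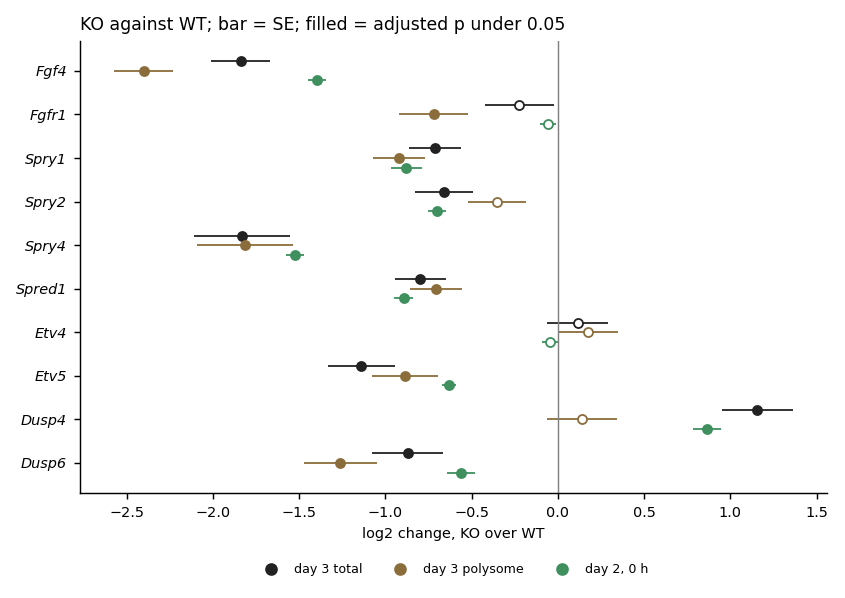
Log2 change of KO over WT (x axis) for each of the 10 genes (y axis) in day 3 whole-cell RNA, day 3 polysomes and day 2 RNA at 0 h. Bars are SE and filled points have an adjusted p under 0.05; Fgf4 and Spry4 lie farthest left at -1.40 to -2.40, and Dusp4 is the gene with filled points right of 0.

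In polysomes 7 of the 10 genes were called lower (Fgf4, Fgfr1, Spry1, Spry4, Spred1, Etv5 and Dusp6) and none higher, where 37% of all genes were called, 21.1% lower and 15.9% higher. None was higher at an unadjusted p under 0.05 or by DESeq2 either. The count of lower genes was 8 without WT polysome replicate 2 (36.7% of all genes called), and 3 (Fgf4, Spry4 and Dusp6) with ribosomal protein scaling, which also called Etv4 and Dusp4 higher. Groups did not overlap for 8 of the 10 genes in polysomes, beside 62% of all genes. Whether the change in polysomes differed from that in whole cells was tested as a difference of the 2 changes. Reads outside annotated genes were 19.8% to 23.7% in the whole-cell libraries and 4.75% to 12.9% in the polysome libraries. The part of that difference in the result was not tested. By edgeR 0 of 10 genes passed, beside 0.0109% of all genes (0.00546% in each direction); 2 were lower at an unadjusted p under 0.05 and DESeq2 called 0. The sizes were -1.02 ± 0.29 for Dusp4 (adjusted p = 0.257) and -0.56 ± 0.23 for Fgf4 (adjusted p = 0.369), and 0.02 ± 0.38 for Spry4 (adjusted p = 1.00). The test turned on WT polysomes: without WT polysome replicate 1, 3 genes were lower (Fgf4, Fgfr1 and Dusp4) and 3 higher (Spry2, Spry4 and Etv5), where 24.3% of all genes were called, and without replicate 2 Dusp4 was the 1 member that passed, at -1.29 (adjusted p = 0.0138), where 0.348% of all genes were called.

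On day 2, a day earlier and with both arms labelled as conditional ESCs, 7 of the 10 genes were called lower and 1 higher, where 62.7% of all genes were called, 32.9% lower and 29.8% higher. The median log2 change of the 10 genes was -0.67 beside -0.01 over all genes. The arms did not overlap for any of the 10, nor for 80.7% of all genes. No left-out library changed these counts. DESeq2 called 9 lower, with Fgfr1 and Etv4 added, and moved the median of all genes to -0.15; ribosomal protein scaling called 6 lower and 3 higher and moved it to 0.39. Trophectoderm markers summed to 146 to 156 CPM in WT and 258 to 272 CPM in KO on day 2, and ESC markers to 4059 to 4093 and 2802 to 2823 CPM. Post-implantation epiblast markers summed to 435 to 436 CPM in WT and 173 to 185 CPM in KO, with 4 of 4 tested lower and a median log2 change of -1.18. Feeder fibroblast markers summed to 201 to 206 CPM in WT and 230 to 245 CPM in KO, with 3 of 4 tested higher. Primitive endoderm markers summed to 19.8 to 21.1 CPM in WT and 24.7 CPM in both KO libraries, with 1 of 6 higher. As on day 3, the part of these markers in the results was not tested.

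The change on day 3 was larger than on day 2 for Etv5, by -0.47 ± 0.07 on the log2 scale (adjusted p = 7.52e-05), and for Fgf4, by -0.41 ± 0.07 (adjusted p = 0.000480). These 2 of the 10 genes passed, beside 4.83% of all genes (2.29% lower and 2.54% higher). Dusp4 missed the threshold with a difference of 0.33 ± 0.10 (adjusted p = 0.0505), as did Dusp6 (-0.27 ± 0.08, adjusted p = 0.0623) and Spry4 (-0.27 ± 0.09, adjusted p = 0.0901). The latter 2 passed without either WT whole-cell library. With ribosomal protein scaling none of the 10 passed. Day, experiment and the source label of the WT cells cannot be told apart in this comparison. The libraries compared also differed in make-up. Reads outside annotated genes were 19.8% to 23.7% in day 3 whole-cell RNA and 6.27% to 7.22% on day 2 at 0 h. Genes detected numbered 29568 to 32072 and 20736 to 20905. That difference runs along with the day and cannot be told apart from it either.

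The actinomycin D experiment followed how much of each mRNA was left after the block of transcription was applied. Because libraries were scaled to the average mRNA, a level here is relative to the bulk of mRNA at the same time, and a value above 100% is a rise relative to that average. Whether any transcription went on was not tested. AU-rich elements and Pumilio sites in 3′ untranslated regions are known places where proteins recruit CCR4-NOT. The letters ATTTA and TATTTAT (which contains ATTTA) and TGTANATA were therefore searched for on the sense strand of the longest annotated 3′ untranslated region of each gene, with positions counted from 1 at the base after the stop codon. ATTTA was found in 68.1% of 14207 tested genes, TATTTAT in 28.8% and TGTANATA in 25.2%, and longer regions hold more matches by length alone. TATTTAT occurred once in Fgf4 and Etv5, at 2 places in Spry1 and in Spry2, at 3 in Spred1 and at 4 in Spry4, and was not found in Fgfr1, Etv4, Dusp4 or Dusp6. ATTTA and TGTANATA occurred at 3 and 2 places in Fgfr1, 1 and 2 in Dusp6, 2 and 0 in Dusp4, and 0 and 1 in Etv4. In the others they were at 6 and 1 in Fgf4, 2 and 0 in Spry1, 2 and 1 in Spry2, 7 and 2 in Spry4, 12 and 4 in Spred1, and 5 and 1 in Etv5. Sites of Fgfr1, Spry4 and Spred1 are not shown. The following sites, from GENCODE M21 transcripts on GRCm38, show the match of Fgf4, those shared by the Spry1 and Spry2 genes, that of the slowly lost Etv5, and, for Dusp4, Dusp6 and Etv4, which lack TATTTAT, a match to ATTTA or TGTANATA; capitals mark the motif.
Fgf4, positions 139 to 145: acgcccaatTATTTATaattttatg
Spry1, positions 869 to 875: tgtaaagaaTATTTATtatgcgaat
Spry2, positions 694 to 700: tgtaaagaaTATTTATttgaagttt
Etv5, positions 1691 to 1697: tcataagcaTATTTATagctttcta
Dusp4, positions 275 to 279: caggtagaaATTTAcctcattat
Dusp6, positions 501 to 508: tctgattatTGTAAATAtttgatctt
Etv4, positions 40 to 47: gttgctcagTGTATATAtcaactgat
Spry1 and Spry2 shared a run of 17 bases around their first TATTTAT, tgtaaagaaTATTTATt, starting at position 860 in Spry1 and 685 in Spry2. Such a match is a description and not evidence of a bound site.

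In WT, 8 of the 10 mRNAs fell relative to the average within 4 h of actinomycin D, where 71.2% of all genes were called, 36.2% lower and 35% higher. The 0 h and 4 h libraries did not overlap for any of the 10 genes, as for 83.8% of all genes. Those lost fastest were as follows. Spry2 was left at 6.88% ± 0.910 (SD, n = 2) of its 0 h mean, Fgf4 at 7.05% ± 0.514, Dusp6 at 7.09% ± 1.57, Spry1 at 7.26% ± 0.0456, Spry4 at 12.3% ± 1.14 and Dusp4 at 15.5% ± 2.09. The replicate spreads of Spry2, Fgf4, Dusp6 and Spry1 overlap, so their order is not resolved. Spred1 was left at 23.4% ± 1.20, and Etv5, at 77.9% ± 3.35, was close to the average mRNA. The fitted log2 changes ran from -3.86 ± 0.07 for Spry2 (adjusted p = 4.52e-36) to -0.36 ± 0.04 for Etv5 (adjusted p = 1.72e-10), and the median of the 10 genes was -2.86 beside 0.01 over all genes.

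Etv4 and Fgfr1 stood at the other end. Etv4 was at 159% ± 8.02 of its 0 h level after 4 h and 189% ± 7.33 after 8 h in WT. Its rise by 0.67 ± 0.04 (adjusted p = 6.05e-17), and that of Fgfr1 by 0.22 ± 0.05 (adjusted p = 5.44e-05), were relative to the average mRNA: with ribosomal protein scaling they were -0.06 and -0.50, while the median of all genes moved to -0.71. With library totals the Fgfr1 value was 0.03 and did not pass.

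In KO, 9 of the 10 mRNAs fell within 4 h and Etv4 rose by 0.46 ± 0.05 (adjusted p = 1.91e-11), where 64.1% of all genes were called, 33.6% lower and 30.5% higher; with ribosomal protein scaling Etv4 was at -0.06. Dusp6 was left at 5.93% ± 2.14, Spry2 at 6.68% ± 0.664, Spry1 at 7.58% ± 0.657, Fgf4 at 11.7% ± 0.654 and Spry4 at 12.2% ± 0.993 of its 0 h mean. Dusp4 was left at 46.1% ± 2.23, the widest gap to its WT value among the fast ones. Spred1 was left at 26.0% ± 0.416, Etv5 at 71.2% ± 2.44, Fgfr1 at 90.9% ± 0.536 and Etv4 at 137% ± 2.21. The Fgfr1 fall of 0.14 ± 0.05 (adjusted p = 0.0123) was not called without KO 0 h replicate 2 or KO 4 h replicate 1, nor with RLE scaling (-0.01).

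**Figure D3:**
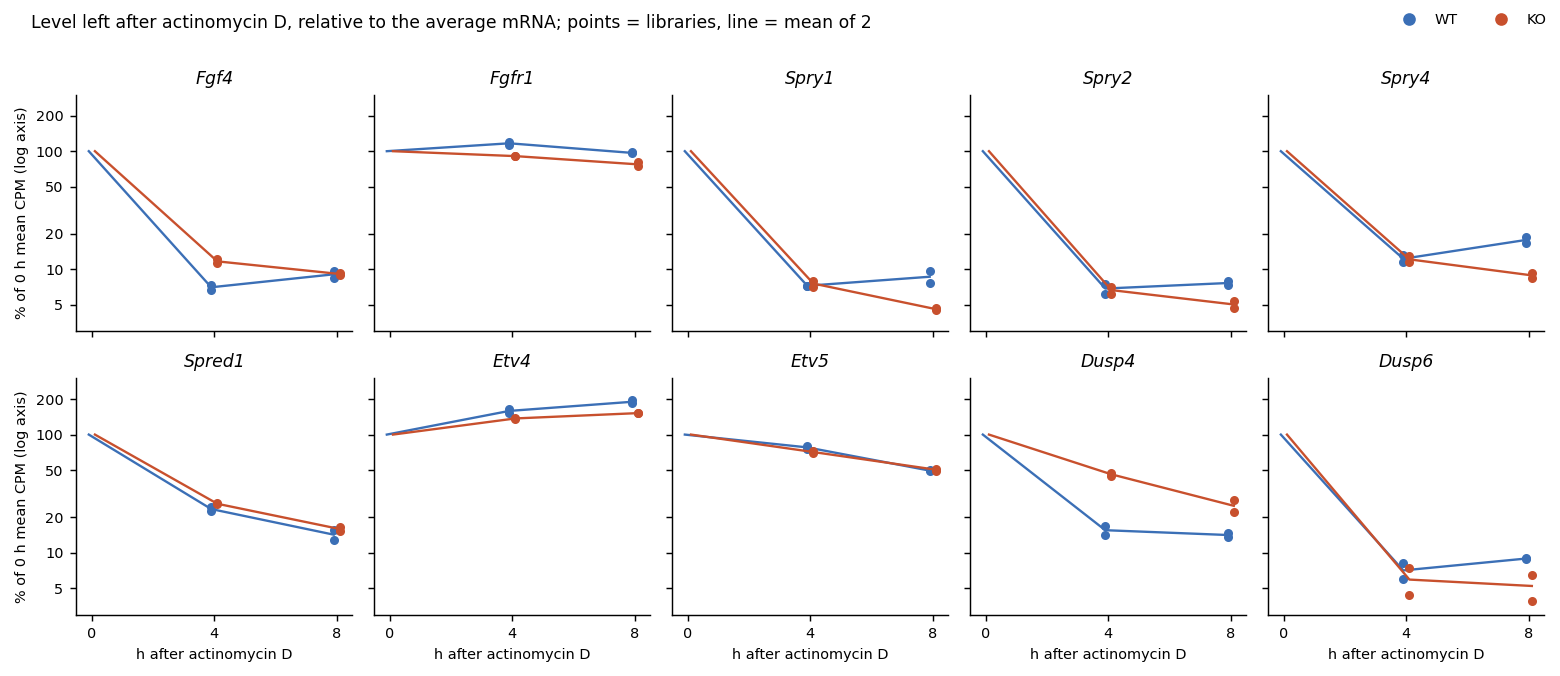
Level left (y axis, % of the mean at 0 h, log axis, relative to the average mRNA) at 0, 4 and 8 h of actinomycin D (x axis) in WT and KO; points at 4 and 8 h are libraries, lines join means of 2, and the mean at 0 h is set to 100%. Dusp4 in KO lies above WT at 46.1% against 15.5% after 4 h, and Spry4 parts between 4 and 8 h, at 17.7% in WT and 8.89% in KO.

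The change over the first 4 h differed between KO and WT for 4 of the 10 genes, beside 26.5% of all genes (13.1% lower and 13.5% higher). Dusp4 went from 19.7 and 20.8 CPM at 0 h to 2.85 and 3.44 CPM at 4 h in WT, and from 36.0 and 37.7 CPM to 17.6 and 16.4 CPM in KO. KO was at 540% of the WT mean after 4 h, compared with 182% at 0 h, and the arms did not overlap at either time. The WT values rest on 59 and 70 reads at 4 h. Its change over 4 h was less negative in KO by 1.58 ± 0.16 on the log2 scale (adjusted p = 1.56e-10) and it stood at percentile 98.6 of all genes in this difference.

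Fgf4 went from 229.8 and 240.9 CPM to 17.5 and 15.7 CPM in WT, and from 88.0 and 90.7 CPM to 10.0 and 10.9 CPM in KO. Its change over 4 h was also less negative in KO, by 0.72 ± 0.10 on the log2 scale (adjusted p = 8.12e-07), and KO stood at 62.9% of WT after 4 h. For Fgfr1 the difference was -0.36 ± 0.07 (adjusted p = 6.20e-05), a rise in WT against a slight fall in KO, relative to the average mRNA. For Etv4 it was -0.21 ± 0.06 (adjusted p = 0.0110), a smaller rise in KO than in WT. Neither of these 2 passed with ribosomal protein scaling (-0.16 and -0.01), which moved the median of all genes from -0.04 to 0.16. Etv4 also did not pass with RLE scaling, library totals, no filter or DESeq2, or without any of 4 libraries (KO or WT 0 h replicate 2, KO 4 h replicate 2 and WT 4 h replicate 1).

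The Sprouty and Spred genes did not pass over 0 to 4 h. Their differences were -0.00 ± 0.08 for Spry4 (adjusted p = 0.993), -0.02 ± 0.12 for Spry2 (adjusted p = 0.924), 0.08 ± 0.30 for Spry1 (adjusted p = 0.887) and 0.15 ± 0.10 for Spred1 (adjusted p = 0.301), which passed with RLE scaling (0.28) and with ribosomal protein scaling (0.36). An SE is less sure for a change near 0, since it was derived from the change itself. The changes over 4 h within WT and KO had SE of 0.06 and 0.07 for Spry4. Those for Spry1, counted at 14 to 35 reads per library after 4 h, were 0.14 and 0.17. Dusp6 was at -0.34 ± 0.23 (adjusted p = 0.309) and Etv5 at -0.13 ± 0.06 (adjusted p = 0.0912).

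Between 4 and 8 h, 4 of the 10 genes changed more negatively in KO than in WT (Fgf4, Spry2, Spry4 and Dusp4) and none more positively, beside 22.5% of all genes (11.3% lower and 11.1% higher). For the higher direction, 1 of the 10 (Etv5) had an unadjusted p under 0.05 and DESeq2 called 0. Spry4 had the most negative difference of these 4. It went from 36.3 and 31.8 CPM at 4 h to 51.8 and 46.4 CPM at 8 h in WT, and from 12.4 and 11.0 CPM to 9.02 and 8.13 CPM in KO. Both WT libraries were thus higher at 8 h than either at 4 h, and both KO libraries lower. The difference was -0.996 ± 0.12 on the log2 scale (adjusted p = 1.35e-08), and KO stood at 17.5% of WT at 8 h.

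Fgf4 was at 22.9 and 19.8 CPM in WT and 8.38 and 7.95 CPM in KO at 8 h, so that the percentage left was again alike in both arms (9.08% ± 0.917 in WT and 9.14% ± 0.335 in KO). Its difference over 4 to 8 h, -0.72 ± 0.13 (adjusted p = 2.51e-05), was as large as that over 0 to 4 h and opposite in sign. Both differences use the 4 h libraries, so a departure at 4 h alone enters them with opposite sign. Dusp4 was at 2.75 and 2.98 CPM in WT and 8.17 and 10.2 CPM in KO, a difference of -0.75 ± 0.21 (adjusted p = 0.00583), which left KO at 25.0% ± 3.94 and WT at 14.1% ± 0.809 of the 0 h mean. Spry2 went from 11.6 and 9.59 CPM to 12.2 and 11.4 CPM in WT and from 6.76 and 5.87 CPM to 5.10 and 4.45 CPM in KO. Its difference of -0.58 ± 0.15 (adjusted p = 0.00445) did not pass without KO 4 h replicate 1 (-0.47, adjusted p = 0.108).

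Spry1, at 48 and 40 reads in WT and 14 and 13 in KO at 8 h, had a difference of similar size, -0.95 ± 0.40, that did not pass (adjusted p = 0.0885). Dusp6 (-0.41 ± 0.30, adjusted p = 0.374), Etv4 (-0.11 ± 0.06, adjusted p = 0.226), Spred1 (-0.01 ± 0.13, adjusted p = 0.957) and Fgfr1 (0.04 ± 0.07, adjusted p = 0.758) did not pass either. Etv5, at 49.6% ± 0.464 of its 0 h mean in WT and 50.4% ± 1.44 in KO after 8 h, had a difference of 0.16 ± 0.06 just above the threshold (adjusted p = 0.0522), and passed without any of 4 libraries (either KO 0 h library, KO 4 h replicate 2 or WT 4 h replicate 1), the lowest adjusted p being 0.00824.

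**Figure D4:**
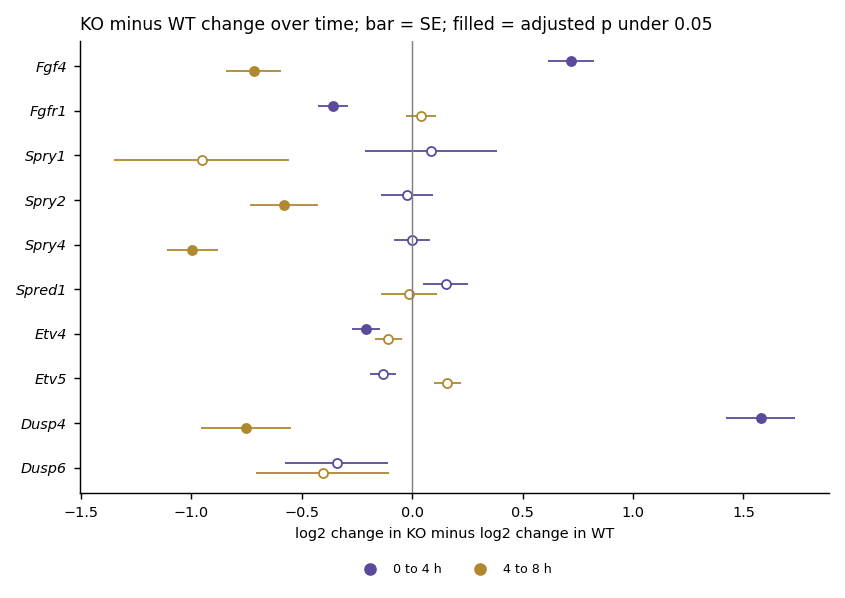
Log2 change in KO minus log2 change in WT (x axis) over 0 to 4 h and 4 to 8 h of actinomycin D for each of the 10 genes (y axis); bars are SE and filled points have an adjusted p under 0.05. Fgf4 and Dusp4 lie right of 0 over the first interval and left of 0 over the next, and Spry4 lies at 0 and then at -0.996.

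Levels of different genes were compared per length, as CPM per kb of exon, with the exons of all annotated transcripts of a gene merged. In day 3 WT whole-cell RNA Etv5 was highest at 125.7 CPM per kb, before Fgf4 at 80.8, Spry4 at 59.3, Spry2 at 55.3, Etv4 at 28.2, Dusp6 at 28.1, Spred1 at 18.3, Dusp4 at 7.17, Spry1 at 7.06 and Fgfr1 at 5.89 CPM per kb. Etv4 and Dusp6, and Dusp4 and Spry1, did not differ beyond their replicate spread. In KO whole-cell RNA on day 3 Dusp4 was at 16.0 CPM per kb and Dusp6 at 15.4. The 2 phosphatase mRNAs, far apart per length in WT there, were thus at near equal levels. Fgf4 in the same KO RNA was at 22.6 and Etv4 at 30.6 CPM per kb. Other settings differed: in KO, Dusp4 and Dusp6 were at 16.5 and 9.17 CPM per kb in polysomes and at 13.5 and 10.7 on day 2 at 0 h. In WT on day 2 at 0 h Fgfr1 was at 9.98, above Spry1 at 7.96 and Dusp4 at 7.40.

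Across the means of the 10 groups, the log2 levels of Fgf4, the Sprouty genes, Spred1 and Dusp6 ran closely together, with Pearson r from 0.927 to 0.993 over 10 group means, highest for Spry1 with Spry2. Etv4 had a negative r with 8 of the other 9 genes (-0.624 to -0.819), and Fgfr1 had an r between -0.149 and 0.367 with all others. The 10 groups span 2 experiments that were scaled separately and share the actinomycin D time points, so these values are descriptions. Loss by 4 and 8 h enters every r. Dusp4, which was higher in KO whole-cell RNA, still had an r of 0.472 to 0.734 with Fgf4, the Sprouty genes, Spred1 and Dusp6. Among 9170 genes searched, those most like Fgf4 were Zfp459 (r = 0.994), Gbx2 (0.993) and Fzd7 (0.990), those most like Spry4 were Zfp280b (0.995), Lats1 (0.992) and Kdm2a (0.988), and those most like Dusp4 were Tnfrsf10b (0.988), Ppm1d (0.981) and Dedd2 (0.979).

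The Sprouty genes, Etv5 and Dusp6 were called lower in KO on both days. RefSeq promoter windows of 300 bases were therefore searched on both strands for CCGGAA, a longer string that contains GGAA, the core letters bound by ETS factors. RefSeq promoters (GRCm38.p6) were searched for 6 genes (Fgf4, Spry1, Spry2, Spred1, Etv5 and Dusp6). Among these, CCGGAA was found in that of Spry2 alone, beside 14.9% of 32851 promoters. Spry4 was left out of this search, so the result does not cover all the Sprouty genes. Fgfr1, Etv4 and Dusp4 were not searched either. The Fgf4 window (144861136 to 144861435) lay well inside the gene span given above. The Spred1 window ended at 117121120, before the gene start given above. No match says only that these letters are not in the window searched. The shorter GGAA was not counted, and it occurs in windows without CCGGAA, such as that of Dusp6 and an Etv5 window. The Spry2 promoter, chr14:105896770-105897069 on the minus strand, is shown for the place of the motif, in capitals near the gene's start.
Spry2 promoter: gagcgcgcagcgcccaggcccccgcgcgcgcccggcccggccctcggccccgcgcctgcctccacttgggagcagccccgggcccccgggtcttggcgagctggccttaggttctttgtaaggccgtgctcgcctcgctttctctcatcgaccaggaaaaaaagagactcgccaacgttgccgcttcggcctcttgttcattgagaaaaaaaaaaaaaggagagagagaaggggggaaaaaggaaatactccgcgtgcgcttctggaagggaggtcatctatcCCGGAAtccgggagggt

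The rest of the pathway, 67 further genes in 6 roles of which 65 were tested (not Fgf2 and Spry3), moved in both directions. On day 3 in whole-cell RNA 19 fell, 13 rose and 33 did not pass, where 12.2% of all genes were called lower and 16% higher. Their median log2 change was -0.17 beside 0.01 over all genes. Among 9 ligand and FGF-binding protein genes 4 fell and 2 rose: the ligand genes Fgf17 (-1.33 ± 0.18) and Fgf15 (-1.51 ± 0.30) fell, while Fgfbp3, which encodes an FGF-binding protein, rose from 1.12 and 1.25 CPM to 8.53 and 8.32 CPM (2.83 ± 0.38) and Fgf1 rose by 0.65 ± 0.21. Fgf1 did not pass without any of 6 libraries, and Fgf15 not without KO whole-cell replicate 1. Fgf1 was lower in KO in the other settings: it fell by 1.03 ± 0.16 on day 2 (adjusted p = 6.04e-07), and in polysomes it went from 6.43 and 9.84 CPM to 1.81 and 1.63 CPM (-2.25 ± 0.25, adjusted p = 0.000158). Of 9 receptor and heparan sulfate genes 4 fell and 3 rose. Ext1, a heparan sulfate polymerase, went from 68.9 and 71.8 CPM to 31.1 and 32.2 CPM (-1.15 ± 0.15), and the receptor gene Fgfr2 from 43.6 and 42.2 CPM to 21.5 and 21.8 CPM (-0.99 ± 0.23).

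The receptor genes Fgfr4 (1.60 ± 0.22) and Fgfr3 (1.11 ± 0.22) rose from low levels, of 2.00 and 2.17 CPM and of 3.76 and 3.54 CPM in WT. Fgfr3 lost the call without any of the 4 whole-cell libraries and Fgfr2 without any of 3. Of 14 adaptor and Ras genes 3 fell, among them Nras (-0.86 ± 0.16) and Hras (-0.50 ± 0.13, but 0.07 with ribosomal protein scaling), and of 10 kinase genes 2 fell, Mapk3, which encodes one of the ERK kinases (-0.71 ± 0.15), and the Raf gene Braf (-0.58 ± 0.17), beside 28.2% of all genes called. Hras and Braf lost the call without any of the 4 whole-cell libraries, and Mapk3 without either KO whole-cell library. On day 2, 9 adaptor and Ras genes fell and 1 rose, and 5 kinase genes fell and 2 rose, where 32.9% of all genes were called lower and 29.8% higher. In polysomes 3 adaptor and Ras genes and 1 kinase gene fell, and 1 of each rose, where 21.1% of all genes were called lower and 15.9% higher.

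Of 9 other inhibitor genes 3 rose and 2 fell on day 3, where 16% of all genes were called higher and 12.2% lower. Dusp5 (1.20 ± 0.16) and Dusp1 (1.17 ± 0.18), which like Dusp4 encode nuclear phosphatases of MAP kinases, rose, and the FGF signalling inhibitors Il17rd (-0.70 ± 0.17) and Spred2 (-0.62 ± 0.20) fell. Il17rd lost the call without any of the 4 whole-cell libraries, and Spred2 without any of these or of the 2 KO polysome libraries. Of 14 transcription factor and target genes 5 rose and 4 fell, beside the same shares of all genes. Egr1, an immediate early target of ERK, went from 18.2 and 21.9 CPM to 6.04 and 7.47 CPM (-1.57 ± 0.22) and the immediate early gene Ier2 fell by 0.82 ± 0.13, while Phlda1 went from 2.00 and 2.57 CPM to 8.24 and 9.17 CPM (1.93 ± 0.25) and the AP-1 gene Fosl1 rose by 2.46 ± 0.35 from 10 and 5 reads to 46 and 43. ERK targets and inhibitors therefore included both higher and lower genes.

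**Figure D5:**
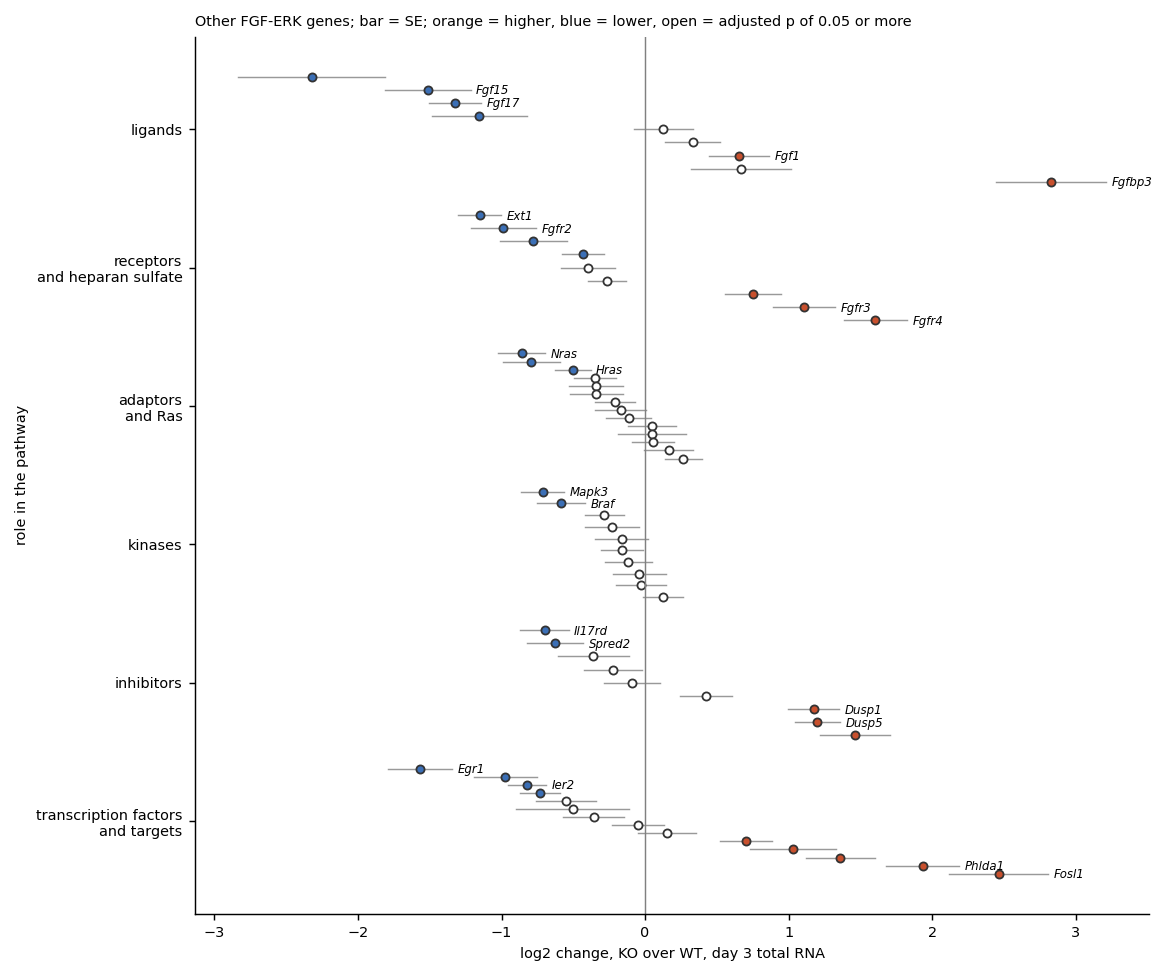
Log2 change of KO over WT in day 3 whole-cell RNA (x axis) for the 65 other pathway genes tested, by role (y axis); bars are SE, filled orange points rose, filled blue points fell and open points did not pass. Adaptor, Ras and kinase genes reach no lower than Nras at -0.86 and none of them is filled right of 0, and ligands, receptors and targets spread to both sides, from Fgf8 at -2.32 to Fgfbp3 at 2.83.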

How the data were processed

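The authors deposited counts of reads per gene, one table per library, aligned with STAR 2.3.0e to mm9 and counted with HTSeq per the submitters' processing notes; the HTSeq version and strand setting are not given in the sources used here. Symbols for 32938 of 37991 gene IDs, positions, exon lengths and 3′ untranslated regions came from GENCODE M21 (GRCm38). HTSeq's tallies of reads in no gene (19.8% to 23.7% in day 3 whole-cell, 4.75% to 12.9% in polysome and 5.26% to 8.12% in actinomycin D libraries) were left out.

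Counts were fitted with edgeR 4.0.16 in R 4.3.3 (TMM; genes kept by filterByExpr at minimum count 10; quasi-likelihood F-test with robust dispersions; Benjamini-Hochberg adjustment over all genes tested, threshold 0.05): 8 day 3 libraries together, 12 actinomycin D libraries together, and 8 libraries for the difference between days. Each SE is the size of the log2 change divided by the square root of F from the same test, so it is less sure for changes near 0. CPM are TMM-scaled within each experiment and rest on 2 libraries a group. Similarity of patterns used log2(CPM + 0.5) over the 10 groups of both experiments, so a difference in scale between experiments enters it; no test was made on these levels. Percentages left and their SD are relative to the 0 h mean of the same arm. The procedure was tested on simulated data, where smaller changes were recovered less often than larger ones and the share of false calls lay above the threshold for day 3 whole-cell RNA and below it for day 2 and the loss in WT. Alternatives were other scalings, filters, DESeq2 1.42.0, a replicate block, a fit of the 4 libraries compared, and each library left out in turn.

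The genes, gene lists and motifs were chosen with earlier results of these data known. The rule for other named genes was up to 2 per role and direction with the smallest adjusted p in day 3 whole-cell RNA, and the 3 genes with the highest r to Fgf4, Spry4 and Dusp4; Fgf8 was named in a caption after its value was seen. Same-numbered replicates were not treated as pairs: their deviations from group means correlated at -0.0394 to 0.224 on day 3 and -0.0553 to 0.0662 in the actinomycin D experiment. Motifs and sequences were read with Python 3.11.15 and figures drawn with matplotlib 3.10.9.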

Additional observations from a re-analysis of the deposited data

Results flagged for a closer look

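For 2 genes the change in KO differed between day 3 and day 2, tested as a difference of the 2 changes with edgeR: Fgf4 by -0.41 and Etv5 by -0.47 on the log2 scale. Both genes fell on each day and fell more on day 3. Day, experiment, the source label of the WT cells and the make-up of the libraries cannot be told apart there. Over the first 4 h of actinomycin D the change differed between KO and WT for Dusp4 (1.58), Fgf4 (0.72), Fgfr1 (-0.36) and Etv4 (-0.21). Over 4 to 8 h it differed for Spry4 (-0.996), Dusp4 (-0.75), Fgf4 (-0.72) and Spry2 (-0.58). Fgf4 and Dusp4 thus differed between the arms in both intervals and with opposite sign, whereas Spry4 differed in the later interval and had a difference of -0.00 in the earlier one. Both intervals use the 4 h libraries, with opposite sign, so the 2 differences of a gene are not separate results. Fgf4 in KO was at 38.0% of WT at 0 h, 62.9% at 4 h and 38.2% at 8 h.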

How the results depend on the processing

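Of 2640 values of single genes recomputed under the alternatives, 2430 stayed on their side of the threshold without a reversal of a call. With ribosomal protein scaling the counts of lower and higher genes became 3 and 2 in day 3 whole-cell RNA, 3 and 2 in polysomes, with 3 higher on day 2, 0 lower for the difference between days, 0 higher for the loss in WT and 0 in KO, 0 lower for the loss difference over 0 to 4 h and 1 higher over 4 to 8 h. Single values reversed there were Fgfr1 (0.35), Etv4 (0.37), Fgfr2 (0.24) and Hras (0.0377) on day 2, Fgfr1 (-0.50) and Etv4 (-0.0564) for the loss in WT, Etv4 (-0.0640) for the loss in KO and Hras (0.0676) on day 3, and in polysomes Nras (0.0180), Hras (0.12) and Braf (0.53). With library totals Etv4 on day 2 was 0.11, and the counts of higher genes became 2 on day 2, 2 for the difference between days, 1 for the loss in WT and 1 for the difference over 4 to 8 h. The count of lower genes in the loss difference over 0 to 4 h was 1 with RLE scaling, library totals, no filter and DESeq2. For the difference between days it was 4 without a filter, and 1 gene was higher with a filter of 1 CPM. Why these values changed was not tested, beyond the shift of all genes that a scaling brings by construction.

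Same-numbered replicates share only a number. With a replicate block the difference between days had 4 lower and 1 higher genes and that over 4 to 8 h had 1 higher; the block changed no other count by over 1.5 times.

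With 1 library left out, whose partner was then assumed to vary like the other groups, lower genes numbered 4 to 8 in day 3 whole-cell RNA, 5 to 8 in polysomes, 0 to 3 for the polysome difference, 2 to 5 between days, 1 to 3 for the loss difference over 0 to 4 h and 3 to 4 over 4 to 8 h. Higher genes numbered 0 to 1, 0 to 2, 0 to 3, 0 to 0, 2 to 2 and 0 to 1 in the same order. On day 2 and for the loss in WT no count changed. After actinomycin D, Spry1 had 13 to 48 reads per library, Dusp6 29 to 121 and Dusp4 in WT 53 to 75, which limits their precision.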
